A study of Rattus norvegicus with 18 samples.

Results

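The quantity described here is the difference between 2 transcript responses of rat hepatocytes, the response to DDEB minus the response to CDEB. Each response was taken against the vehicle cultures of its own array lot, so that the value for a gene was the DDEB effect (DDEB minus VC_2) minus the CDEB effect (CDEB minus VC_1), on the log2 scale. It drew on 12 of the 18 arrays of the series and gave an estimate for 21419 genes, of which 10748 had a plain gene symbol. The question was which functions differ between both compounds and how far the estimates are resolved. Both compounds belong to the p-dialkoxy chlorobenzenes named in the title of the study.

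The groups were 3 cultures exposed to DDEB at 300 µM for 24 h, their 3 vehicle cultures VC_2 (DMSO), 3 cultures exposed to CDEB at 300 µM for 24 h, and their 3 vehicle cultures VC_1 (DMSO). All held cryopreserved primary hepatocytes of male Sprague Dawley rats that had been kept in culture for 24 h before exposure. For each sample 100 ng of total RNA was hybridised alone to an Agilent one-colour (Cy3) array. The design text calls the 3 cultures of a group independent experiments but does not say whether they came from different animals, so the p-values cover no more than the spread between these 3 cultures. The 300 µM dose and the 24 h time were the same for both compounds.

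Hepatocytes burn fatty acids in mitochondria and peroxisomes, make glucose, bile acids and most plasma proteins, and clear foreign compounds with cytochrome P450 enzymes, conjugating enzymes and efflux pumps. In rodents the fatty acid sensor PPARα raises peroxisomal and mitochondrial oxidation genes and the Cyp4a omega-hydroxylases, and the xenobiotic sensors CAR and PXR raise Cyp2b, Cyp3a and transporter genes. Isolated hepatocytes in culture lose many of these liver functions with time.

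The arrays carried a pattern of their own that touches every value below. On each array 61.0% to 64.3% of spots lay well above background. Slide and group were tied: VC_1 lay on slide 1, VC_2 with DDEB replicates 1 and 2 on slide 2, DDEB replicate 3 on slide 3 and CDEB on slide 4. The CDEB effect and a difference between slides 4 and 1 therefore cannot be told apart, and the DDEB effect lies within 1 slide only without DDEB replicate 3. The signal of a mid-range spike-in RNA over that of a bright one was 4.42% to 5.31% in DDEB against 5.50% to 5.52% in VC_2, and 4.15% to 4.22% in CDEB against 4.91% to 5.05% in VC_1. This ratio was lower in each exposed group than in its own controls, and its part in the results was not tested.

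Replicate 3 stood apart in 3 of the 4 groups. Cyp7a1, the rate-limiting enzyme of bile acid synthesis, shows this most plainly. Its level, in log2 units relative to the 75th percentile of the array, was -1.52, -1.81 and -4.81 in DDEB replicates 1 to 3 and -1.02, -1.30 and -3.29 in VC_2, and it was -0.34, -0.31 and -0.43 in CDEB and -1.11, -1.40 and -3.22 in VC_1. The low replicate 3 was present in DDEB and in both vehicle groups and absent from CDEB. Over all genes, the deviations of VC_2 and VC_1 arrays of the same number from their group means had correlations of 0.64, 0.47 and 0.81, whereas those of DDEB with CDEB were 0.14, 0.01 and 0.13. Whether same-numbered VC_2 and VC_1 arrays came from separate cultures is not stated in the labels. The 2 vehicle groups may therefore not be independent of each other. The median SD between cultures was 0.19 in DDEB, 0.14 in VC_2, 0.07 in CDEB and 0.15 in VC_1. The cause was not tested, and values without replicate 3 of all 4 groups are given beside several results.

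**Figure D1:**
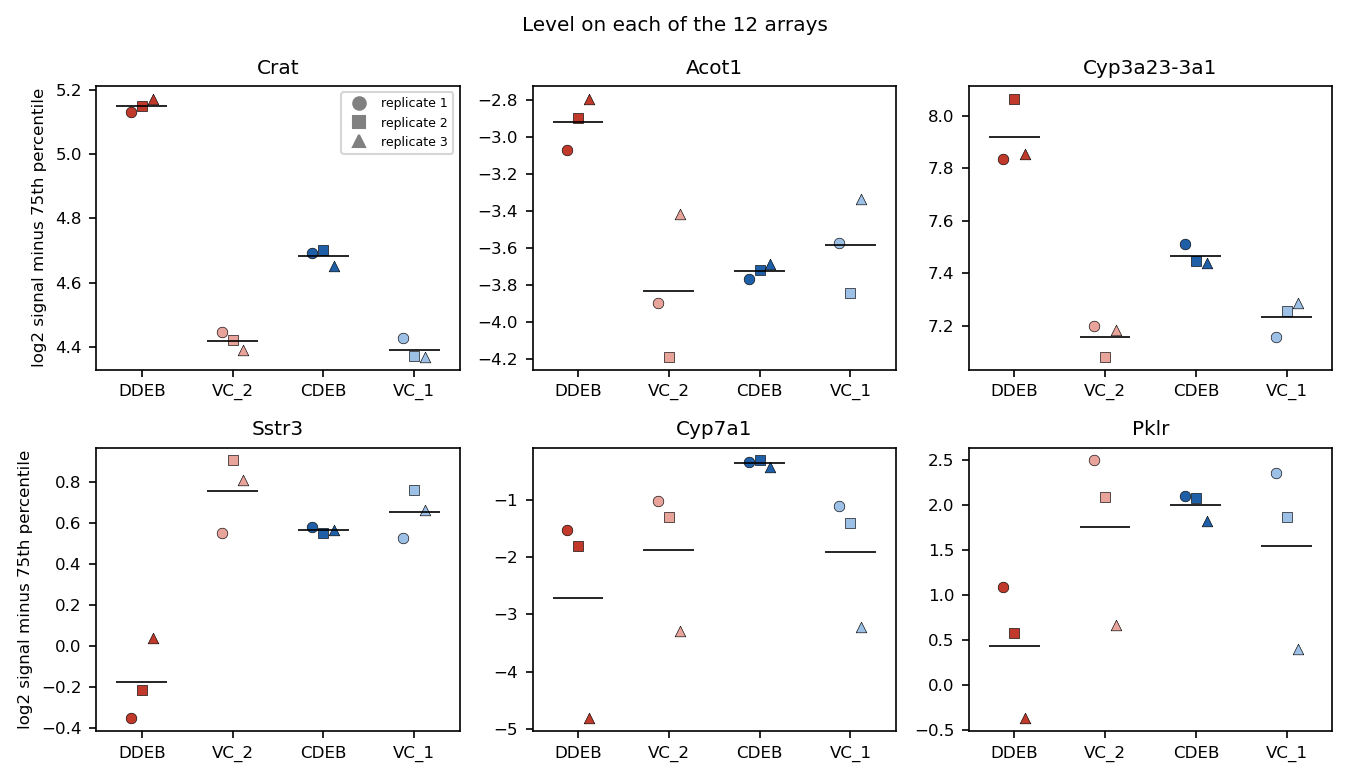
Level of 6 genes on each of the 12 arrays (log2 processed signal minus the 75th percentile of the array), by group, with replicate number as the marker shape and the group mean as a line. Crat, Acot1 and Cyp3a23-3a1 are higher in all 3 DDEB cultures than in all 3 VC_2 cultures, Sstr3 is lower, and Cyp7a1 and Pklr have a low replicate 3 in DDEB, VC_2 and VC_1 but not in CDEB.

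No gene passed the test of the difference. With limma's moderated test on the 12 arrays and Benjamini-Hochberg adjustment over 21419 genes, 0 genes (0.0%) had an adjusted p under 0.05, and the smallest adjusted p was 0.085. At an unadjusted p under 0.05 there were 1194 genes (5.57%), of which 694 (3.24% of all genes) had a larger value with DDEB and 500 (2.33%) a smaller one. Over all genes 52.1% of differences lay above 0. The same fit called 65 genes (0.303%) in DDEB against VC_2, 41 higher and 24 lower, and 2 genes (0.00934%) in CDEB against VC_1, 1 higher and 1 lower (0.00467% each). Both effects used a variance pooled over the 4 groups, so both had a median standard error of 0.13. The mean variance was 0.16 in DDEB, 0.08 in VC_2, 0.03 in CDEB and 0.08 in VC_1. The pooled error is thus small for the DDEB effect and large for the CDEB effect, and calls of both are not on equal terms. These calls were not steady: with slide as a random block they were 190 and 0, without DDEB replicate 2 they were 3 and 2, and under array median scaling both were 0. In bulk cultures, fewer cells of a type and less RNA per cell cannot be told apart.

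The gene closest to the threshold was a transcript with no symbol here. Its level was -3.48, -3.72 and -3.84 in DDEB, against -4.29, -4.11 and -4.14 in VC_2, and -5.00, -5.06 and -5.11 in CDEB, against -4.27, -4.19 and -4.39 in VC_1. All DDEB cultures lay above all VC_2 cultures and all CDEB cultures lay below all VC_1 cultures. The effects of 0.50 and -0.77 gave a difference of 1.27 ± 0.14 (standard error, n = 3 per group; 95% interval 0.96 to 1.58; limma adjusted p = 0.0851).

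The estimates resolved differences of moderate size for most genes. The median standard error of a difference was 0.19 and the median half-width of its 95% interval was 0.42, a 1.34-fold change either way, with 0.23 at the 10th and 1.08 at the 90th percentile of genes. For 74.9% of genes (16044) the whole interval lay within 1 log2 unit of 0, so that a difference over 2-fold lay outside it. For 39.1% it lay within 0.5. Resolution followed signal: the median half-width was 0.78 in the dimmest 5355 genes and 0.29 in the brightest 5355, and the share of genes with the interval within 1 unit was 40.8% and 92.0%. A single gene at the median standard error would need a difference of 1.83, or 3.56-fold, to pass the adjusted threshold alone. Of the 572 genes with an estimate past 1 in size, 179 had an unadjusted p under 0.05 and 198 were well above background on all 12 arrays. All of these values come from the fit of 4 group means, which has no term for slide. With slide as a random block the median standard error was 0.26, beside 0.19.

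Both effects, set side by side, had the same sign on 57.7% of genes, with a Pearson correlation of 0.15 over genes, which are not independent replicates. Of the 65 genes called in the DDEB effect, 60 had the same sign in the CDEB effect and 63 were larger in size with DDEB. The calls of the DDEB effect do not show a difference: for 24 of the 65 the interval of the difference held 0, and the other 41 had an unadjusted p under 0.05 with no adjusted call. These 65 were chosen on the DDEB effect, which is itself one side of the difference.

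**Figure D2:**
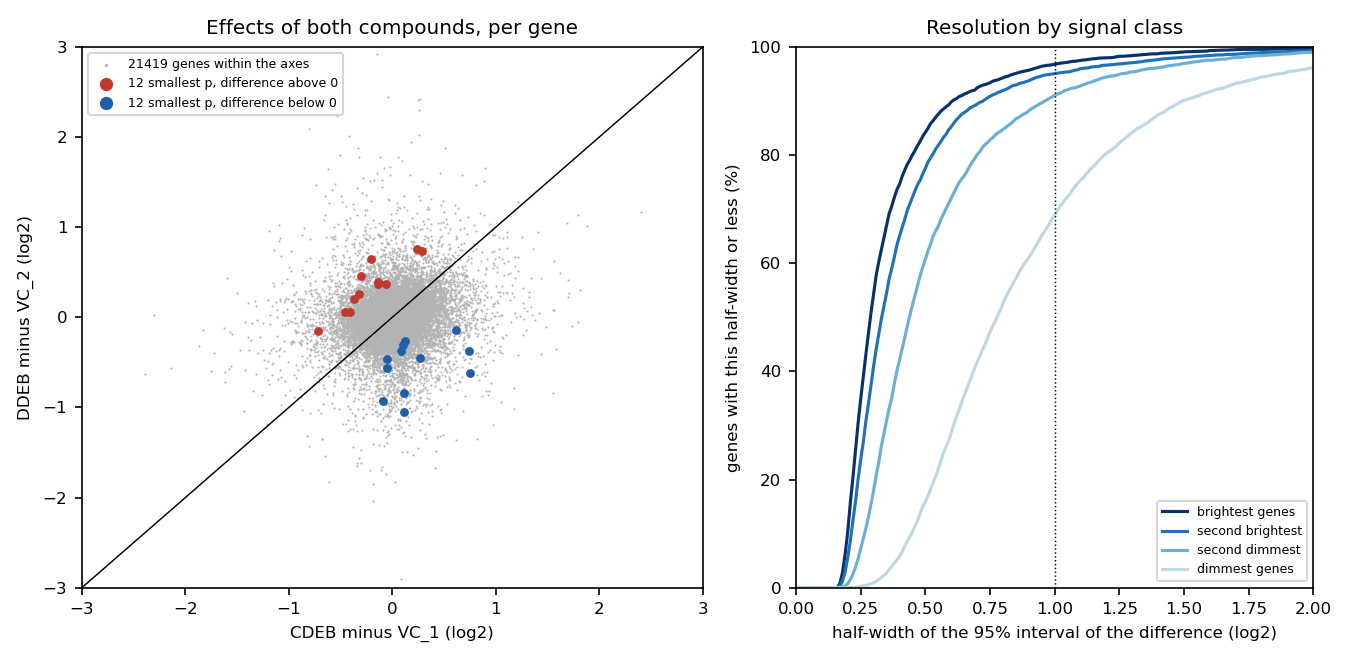
Left, the effect of DDEB (vertical) against the effect of CDEB (horizontal) for 21419 genes, with the line of equal effects and the 24 genes with a symbol and the smallest p of the difference marked. Right, the cumulative share of genes by half-width of the 95% interval of the difference, in 4 signal classes; at a half-width of 1 the dimmest class lies below the other 3.

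Fatty acid oxidation genes with a small p of the difference all lay above 0. The 4 lists for them (omega-hydroxylases, peroxisomal and mitochondrial oxidation, and fuel switch, ketogenesis and lipid droplet genes) had 105 measured genes of 116, each counted once. None passed the adjusted test of the difference. At an unadjusted p under 0.05, 15 were higher with DDEB (14.3%, against 3.24% of all genes) and 0 were lower. The median difference of the 105 was 0.04, with 63 above 0 and 42 below, beside a median of 0.01 over all genes. Both effects were themselves above 0 on these genes, with medians of 0.24 for DDEB and 0.19 for CDEB. Of the 105 genes, 8 were called in the DDEB effect (0.303% of all genes were) and 1 in the CDEB effect (0.00934%). The count of 15 depends on the setting: it was 1 with slide as a random block, 1 with 3 lower under array median scaling, 3 without replicate 2, 11 without replicate 1, 20 with 6 lower without replicate 3, and 28 with 7 lower with array weights. The share of all genes that were higher at that p moved too, and in the same order was 0.84%, 0.854%, 1.36%, 1.99%, 5.31% and 10.3%. The share of all genes that were lower was 8.31% under array median scaling, 5.32% without replicate 3 and 8.45% with array weights.

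Crat, the carnitine acetyltransferase that shuttles acetyl groups out of mitochondria and peroxisomes, had the tightest estimate of the group. Its level was 5.13, 5.15 and 5.17 in DDEB, against 4.45, 4.42 and 4.39 in VC_2, and 4.69, 4.70 and 4.65 in CDEB, against 4.43, 4.37 and 4.37 in VC_1. Each exposed group lay above its own controls with no overlap. Crat rose with DDEB (0.73, limma adjusted p = 0.000916), whereas the CDEB effect of 0.29 did not pass (adjusted p = 0.138). The difference was 0.44 ± 0.07 (interval 0.27 to 0.61, adjusted p = 0.291), and it was 0.41 without replicate 3.

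Thioesterases, which split acyl-CoA into free fatty acid and coenzyme A, had differences above 0 for Acot1, Acot2 and Acot4. Acot1, the cytosolic form, had a level of -3.07, -2.90 and -2.79 in DDEB, against -3.90, -4.19 and -3.41 in VC_2, and of -3.77, -3.72 and -3.68 in CDEB, against -3.57, -3.84 and -3.34 in VC_1. DDEB cultures lay above their controls and CDEB cultures lay among theirs. The difference was 1.05 ± 0.26 (interval 0.47 to 1.64, limma adjusted p = 0.619), and it was 0.29 with normexp, an alternative background correction. Normexp added an offset of 50 to each signal, where the 75th percentile of processed intensity was 430 to 654. Such an offset shrinks log2 differences of dim genes by construction, so a smaller value there is no test of the estimate. The mitochondrial form Acot2 had effects of 0.51 for DDEB and 0.00 for CDEB, a difference of 0.50 (0.13 to 0.88), and its 2 probes gave 0.50 and 1.08. Peroxisomal Acot4 had 0.41 and 0.03, a difference of 0.38 (0.14 to 0.62). Acot1 and Acot2 are close copies, so a probe of one may read the other.

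Enzymes of the oxidation spiral had smaller or wider differences. Acaa1a, a peroxisomal thiolase, rose with DDEB (0.70, limma adjusted p = 0.0366) and had a CDEB effect of 0.24, with a difference of 0.46 (0.12 to 0.80). Its near-identical copy Acaa1b also rose with DDEB (0.75, adjusted p = 0.0394), with a CDEB effect of 0.27 and a difference of 0.47 (0.10 to 0.85); the probes may not tell the copies apart. Eci1, a mitochondrial isomerase for unsaturated fatty acids, had a difference of 0.56 (0.04 to 1.08) and Cpt1b, the muscle-type gate of mitochondrial import, had 0.31 (0.07 to 0.55). Without replicate 3 the differences were 0.33 for Acaa1a, 0.32 for Acaa1b, 0.41 for Eci1 and 0.34 for Cpt1b. Hadha, Acadl and Acsl1, abundant genes of the same pathway, had differences of 0.03 (-0.24 to 0.29), 0.11 (-0.12 to 0.35) and -0.11 (-0.33 to 0.11), intervals that leave room for at most about 0.35 either way. For Ucp2, a mitochondrial carrier, the difference was 0.09 with a wide interval of -0.45 to 0.62.

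The omega-hydroxylases, which start the breakdown of fatty acids at the methyl end, include the 1 gene called higher with both compounds. Cyp4a1 had a level of 3.48, 3.72 and 3.71 in DDEB, against 2.62, 2.58 and 2.64 in VC_2, and of 3.58, 3.59 and 3.61 in CDEB, against 2.79, 2.78 and 2.86 in VC_1. It rose with DDEB (1.02, 2.03-fold, limma adjusted p = 0.000916) and with CDEB (0.79, 1.73-fold, adjusted p = 0.0205). The difference was 0.23 ± 0.10, with an upper bound of 0.47. Cyp4a3 rose with DDEB (0.88, adjusted p = 0.0136), had 0.62 with CDEB (adjusted p = 0.102) and a difference of 0.26 (-0.06 to 0.58). Ehhadh, the peroxisomal bifunctional enzyme, rose with DDEB (0.65, adjusted p = 0.0107), had 0.50 with CDEB (adjusted p = 0.0506) and a difference of 0.15 (-0.07 to 0.37), or 0.28 (0.09 to 0.47) without replicate 3. Cyp4b1, a dim gene above background on 11 of 12 arrays, had the highest difference of the 105 genes, 1.15, with an interval of 0.25 to 2.04; without replicate 3 it was 1.00 and the interval held 0, and with normexp it was 0.26. Its 2 probes gave 1.15 and 1.82.

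Fuel-switch genes gave a mixed picture. Pdk4, which closes the pyruvate dehydrogenase gate, had effects of 0.61 for DDEB and 0.01 for CDEB and a difference of 0.60 (0.18 to 1.02), or 0.09 with normexp. Mlycd, which removes the malonyl-CoA brake on fatty acid import, had 0.33 (0.08 to 0.59). Pnpla2, the lipase that opens lipid droplets, had 0.39 (0.06 to 0.71). Txnip, a glucose-responsive inhibitor of thioredoxin, lay on the other side at -0.85 (-1.77 to 0.06), and its DDEB levels of 0.11, -0.19 and -1.17 held the low replicate 3; without replicate 3 it was -0.46 (-1.08 to 0.15).

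**Figure D3:**
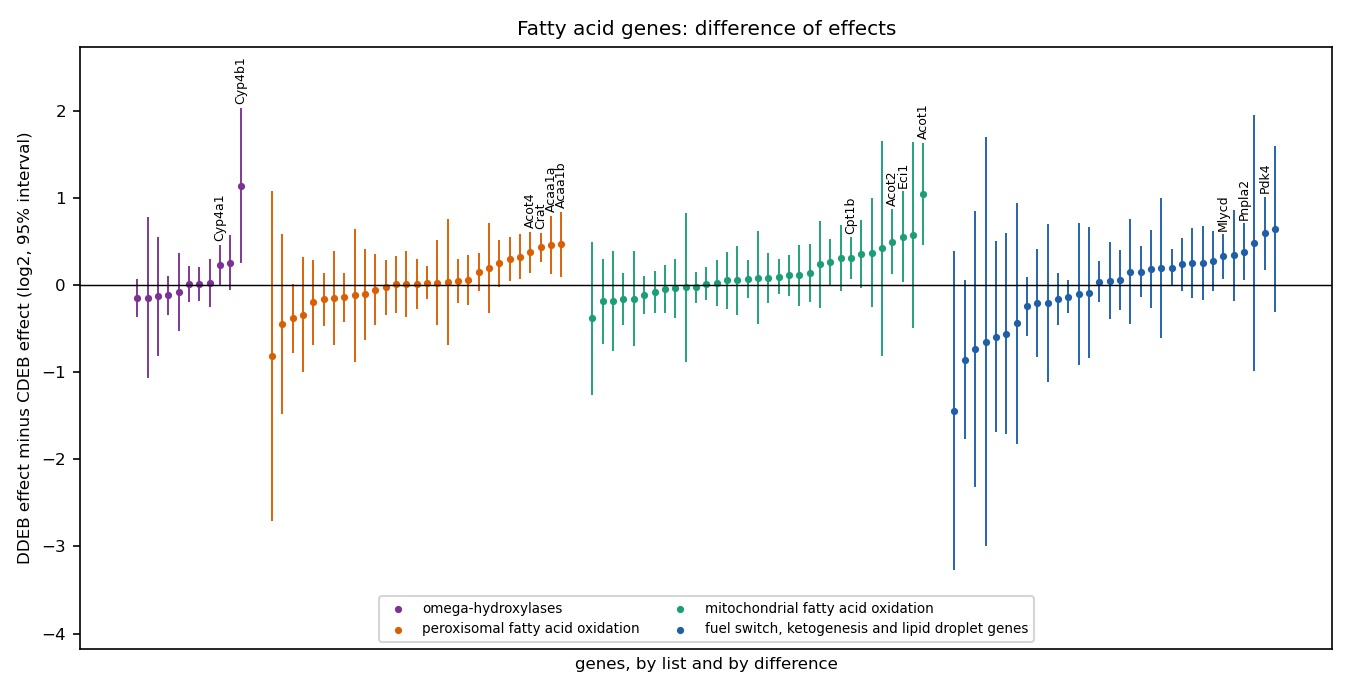
Difference of effects (DDEB effect minus CDEB effect, log2) with its 95% interval for the measured genes of the 4 fatty acid lists, ordered within each list; of the genes with an unadjusted p under 0.05, those described in the text are named. All 15 of those genes lie above 0, and most other intervals hold 0.

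Lipid synthesis showed differences on both sides of 0. Of 26 measured genes for fatty acid synthesis, 1 was higher and 2 were lower at an unadjusted p under 0.05, beside 3.24% and 2.33% of all genes. Their median was 0.09 and became -0.04 without replicate 3. Me1, the malic enzyme that supplies NADPH, had a difference of 0.40 (0.05 to 0.75). Acly, which makes cytosolic acetyl-CoA, had -0.27 (-0.53 to -0.01), and Thrsp, a lipogenic regulator, had -0.97 (-1.79 to -0.15). Scd, the stearoyl-CoA desaturase, had close effects with both compounds. Its level was 6.89, 6.81 and 6.88 in DDEB, against 6.38, 6.32 and 6.25 in VC_2, and 6.96, 6.92 and 6.87 in CDEB, against 6.43, 6.42 and 6.22 in VC_1. Scd rose with DDEB (0.54, limma adjusted p = 0.0218), had 0.56 with CDEB (adjusted p = 0.0506), and the interval of the difference of -0.02 ran from -0.25 to 0.21.

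Insig1, Insig2 and Abcg5, which take part in sterol balance, had differences above 0. Insig1 and Insig2 encode proteins that hold the sterol regulator SREBP in the endoplasmic reticulum. Insig2 had a level of 3.21, 3.42 and 3.42 in DDEB, against 2.96, 2.93 and 3.06 in VC_2, and 2.90, 2.81 and 2.82 in CDEB, against 2.95, 2.93 and 3.07 in VC_1. DDEB cultures lay above all controls and CDEB cultures below theirs, with a difference of 0.50 (0.25 to 0.75, limma adjusted p = 0.557). For Insig1 the difference was also 0.50 (0.16 to 0.84), from effects of 0.12 and -0.38, and it was 0.33 (0.13 to 0.53) without replicate 3. The 25 measured genes of cholesterol synthesis, Insig1 among them, had a median of -0.03 with 12 above and 13 below 0. Abcg5, a sterol exporter, had effects of 0.89 and 0.34 and a difference of 0.55 (0.04 to 1.06), or 0.18 with normexp. It was the 1 higher gene at an unadjusted p under 0.05 among 11 measured sterol export and LXR targets, of which 1 was lower. Of all genes 3.24% were higher and 2.33% lower. The median of the 11 was 0.02, with 6 above and 5 below 0.

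Drug clearance genes lay on both sides of 0. The 32 measured CAR and PXR targets had a median difference of -0.11, with 13 above and 19 below 0. At an unadjusted p under 0.05, 3 were higher and 1 lower, beside 3.24% and 2.33% of all genes. The 3 higher genes were Cyp3a23-3a1, Abcc2 and Ugt2b1. The 1 lower gene was Thrsp, the lipogenic regulator that is also counted under fatty acid synthesis. Cyp3a23-3a1, the main inducible Cyp3a enzyme of the rat and a PXR target, had a level of 7.84, 8.06 and 7.85 in DDEB, against 7.20, 7.08 and 7.18 in VC_2, and 7.51, 7.45 and 7.44 in CDEB, against 7.16, 7.25 and 7.29 in VC_1. It rose with DDEB (0.76, 1.70-fold, limma adjusted p = 0.0107) and had 0.23 with CDEB (adjusted p = 0.321), with a difference of 0.53 ± 0.11 (0.28 to 0.77, adjusted p = 0.546) that its 2 probes gave as 0.53 and 0.60.

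Abcc2, the canalicular pump for conjugated drugs and bilirubin, was placed on opposite sides of the controls by the compounds. Its level was 8.43, 8.55 and 8.72 in DDEB, against 8.32, 8.25 and 8.35 in VC_2, and 7.79, 7.79 and 7.83 in CDEB, against 8.05, 8.14 and 8.18 in VC_1. Every DDEB culture lay above and every CDEB culture below its own controls. Neither effect passed (0.26 and -0.32, limma adjusted p = 0.210 and 0.235), and the difference was 0.58 ± 0.11 (0.33 to 0.83, adjusted p = 0.433), or 0.51 without replicate 3. Ugt2b1, a glucuronosyltransferase, had effects of 0.39 and -0.03 and a difference of 0.42 (0.14 to 0.71).

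The promoters of Cyp3a23-3a1 and Abcc2 are shown because both genes stand among the 12 smallest p above 0 and both are known as targets of PXR-type receptors, which bind repeats of short hexamers. The windows run from 250 bases before to 50 bases after the RefSeq start on GRCr8, 5′ to 3′ in the direction of the gene, at chr12:14398754-14399053 (minus strand) for Cyp3a23-3a1 and chr1:252613625-252613924 (plus strand) for Abcc2. Capitals mark matches on either strand to the hexamer AGGTCA or to a direct repeat of AGTTCA with a spacer of any 3 bases.
Cyp3a23-3a1: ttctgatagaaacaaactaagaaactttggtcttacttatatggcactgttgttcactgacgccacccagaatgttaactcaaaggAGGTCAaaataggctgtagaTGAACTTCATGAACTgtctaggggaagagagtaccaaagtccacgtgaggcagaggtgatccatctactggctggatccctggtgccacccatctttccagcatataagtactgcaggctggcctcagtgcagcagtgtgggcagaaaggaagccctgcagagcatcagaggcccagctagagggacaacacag
Abcc2: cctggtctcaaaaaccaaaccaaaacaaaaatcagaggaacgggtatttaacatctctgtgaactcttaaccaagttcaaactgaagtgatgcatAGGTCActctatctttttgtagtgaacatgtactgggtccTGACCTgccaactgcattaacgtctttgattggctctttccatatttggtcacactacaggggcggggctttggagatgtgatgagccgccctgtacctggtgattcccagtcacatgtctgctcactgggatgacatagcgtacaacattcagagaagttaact
The Cyp3a23-3a1 window held 1 hexamer, at 164 to 159 bases before the start, and 1 direct repeat on the opposite strand, at 144 to 130 bases before it. The Abcc2 window held 2 hexamers, at 155 to 150 and at 115 to 110 bases before the start, and no such repeat. Among 33469 promoter windows of this length, 16.2% held the hexamer and 2 windows (0.00598%) held the repeat, that of Cyp3a23-3a1 among them. Of the fatty acid genes measured, 86 had a window in the table, and 21 of these (24.4%) held the hexamer and 0 held a direct repeat of AGGTCA with a spacer of 1 base, which 0.0538% of all windows held. In the windows of Cyp4b1, Crat, Acot1 and Pdk4, the fatty acid genes with the smallest p in each list, neither the hexamer nor its repeat was found. These matches are descriptions of letters in a short window, and the repeat and both genes were chosen after that first search.

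In 5 lists of metabolic, P450 and plasma protein genes, described next, most genes lay below 0 in the difference. In the lists for peroxisomal oxidation, mitochondrial oxidation and fuel switch 17 of 29, 22 of 33 and 19 of 33 genes lay above 0. Omega-hydroxylases were split, with 6 above and 5 below. Lists outside the 5 also lay mostly below 0, among them endoplasmic reticulum chaperones (26 of 35), nuclear receptors (19 of 26) and bile acid genes (14 of 20). The 17 measured male-type and other basal cytochrome P450 genes had a median difference of -0.45 (13 below 0) and 21 gluconeogenesis genes had -0.33 (16 below). Among 64 genes for plasma proteins, acute phase and complement 56 lay below 0, with a median of -0.21. For 38 glycolysis and hypoxia genes 32 lay below, with -0.15, and for 45 urea cycle and amino acid genes 33 lay below, with -0.13. Few of these members had an unadjusted p under 0.05. There were 1 lower P450 gene, 0 gluconeogenesis genes, 3 lower and 1 higher plasma protein genes, 0 glycolysis genes, and 1 lower and 1 higher urea cycle gene. Over all genes the shares were 2.33% lower and 3.24% higher. In the 5 lists, in the order given, the DDEB effect had medians of -0.10, 0.04, -0.01, 0.18 and 0.04, and the CDEB effect had medians of 0.22, 0.26, 0.20, 0.29 and 0.20.

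The size of these medians went with replicate 3. Without replicate 3 the P450 median was -0.31, gluconeogenesis -0.20, plasma proteins -0.15 with 56 still below 0, glycolysis and hypoxia -0.09, and urea cycle and amino acid genes -0.11. On single DDEB arrays the P450 median effect was 0.01, -0.04 and -0.31 in replicates 1 to 3, against 0.24, 0.29 and 0.13 on the CDEB arrays. For plasma proteins the DDEB arrays gave 0.13, 0.01 and -0.18, against 0.25, 0.19 and 0.16 for CDEB. Single vehicle arrays mattered too. Without VC_1 replicate 3 alone the 5 medians were -0.16, -0.16, -0.08, 0.01 and -0.03, in the order P450, gluconeogenesis, plasma proteins, glycolysis and hypoxia, and urea cycle. Without VC_2 replicate 3 alone they were -0.64, -0.56, -0.30, -0.32 and -0.26. All 3 DDEB arrays lay below the CDEB arrays for both lists, and DDEB replicate 3 was the lowest; the values of an effect share a control mean.

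**Figure D4:**
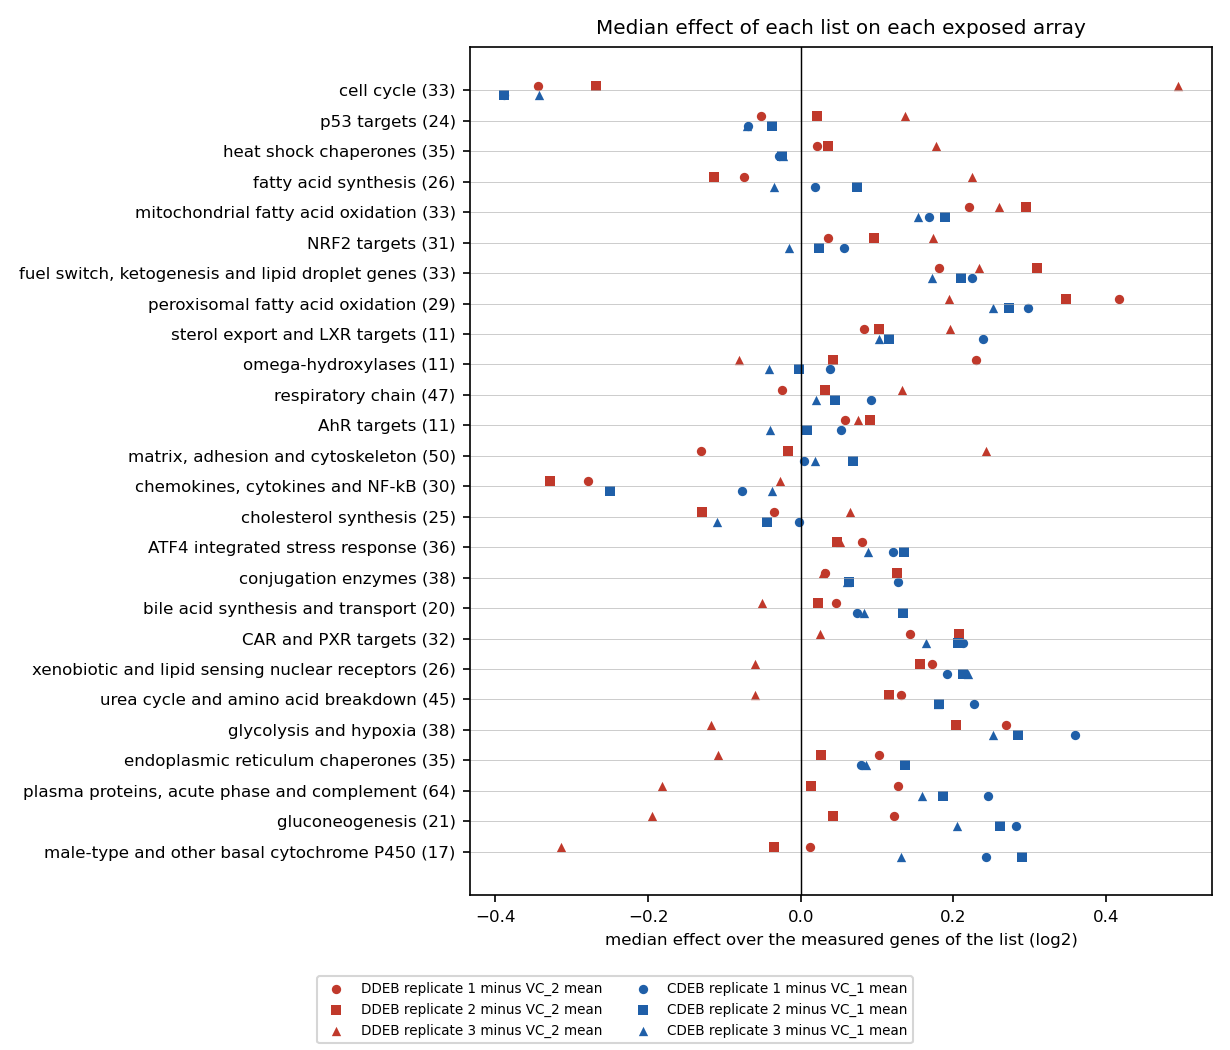
Median effect of each list (log2) on each DDEB array minus the VC_2 mean and each CDEB array minus the VC_1 mean, with the number of measured genes in brackets and lists ordered by median difference. DDEB replicate 3 stands apart from DDEB replicates 1 and 2 in the lists for cell cycle and for liver functions.

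Some liver function genes had wide intervals. Pklr, the liver pyruvate kinase, had a level of 1.09, 0.57 and -0.37 in DDEB, against 2.49, 2.08 and 0.67 in VC_2, and of 2.10, 2.08 and 1.82 in CDEB, against 2.35, 1.86 and 0.40 in VC_1. Its difference was -1.78 with an interval of -3.62 to 0.07; without replicate 3 it was -1.44 (-2.30 to -0.58, unadjusted p = 0.00663 by limma). Cyp7a1, described above, had a difference of -2.40 (-5.28 to 0.48), or -1.44 (-1.97 to -0.91) without replicate 3. Slc10a1, the bile salt uptake carrier, had -1.11 (-2.50 to 0.28), or -0.80 (-1.21 to -0.39). In these genes leaving out replicate 3 shrank the estimate and narrowed the interval together. The bile acid synthesis and transport list, which holds Cyp7a1 and Slc10a1, had 20 measured genes with a median of -0.08 (quartiles -0.20 and 0.01). Of these, 14 lay below 0 and 0 had an unadjusted p under 0.05. Without replicate 3 the median of that list was -0.10.

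Further liver genes lay on both sides of 0. Cyp17a1, a steroid hydroxylase, had -0.64 (-1.39 to 0.11), or -0.42 (-0.62 to -0.22) without replicate 3, and Cyp2f4, a P450 of small aromatic substrates, had -0.52 (-1.01 to -0.03). Pc, pyruvate carboxylase at the entry of gluconeogenesis, had -0.56 (-1.32 to 0.20), or -0.31 without VC_1 replicate 3 and -0.81 without VC_2 replicate 3. Gnmt, which disposes of excess methyl groups, had -0.67 with an upper bound just under 0. The glucose transporter Slc2a1 rose with DDEB (0.41, limma adjusted p = 0.0230), had 0.26 with CDEB and a difference of 0.15 (-0.03 to 0.33). Gls2, the liver glutaminase, rose with DDEB (0.35, adjusted p = 0.0413), had 0.07 with CDEB and a difference of 0.27 (0.09 to 0.45).

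Plasma protein genes were not uniform. Serpina3n, an acute phase protease inhibitor, had a difference of -0.57 (-1.02 to -0.11) and Cp, ceruloplasmin, had -0.28 (-0.55 to -0.01). Crp, C-reactive protein, lay on the other side at 0.28 (0.03 to 0.52). Of the 38 conjugation enzymes, 4 were lower and 1 was higher at an unadjusted p under 0.05. The shares of all genes were 2.33% and 3.24%. The methyltransferase Nnmt had -0.37 (-0.65 to -0.09) and the acetyltransferase Nat1 had -0.45 (-0.83 to -0.07). The glutathione transferase Gstt2 had -0.33 (-0.63 to -0.04), with 3 Gstt2 probes between -0.33 and -0.05. Without replicate 3 Gstt2 was at -0.21 and the interval held 0. Thra, a thyroid hormone receptor, had -0.41 (-0.75 to -0.07), the 1 member at a small p among 26 nuclear receptors with a median of -0.11.

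Stress and growth lists lay on both sides of 0. The 35 heat shock chaperones had a median of 0.09 with 26 above 0 and none at an unadjusted p under 0.05, and Hspb1, a small heat shock protein, had 0.12 (-0.25 to 0.49). The 35 endoplasmic reticulum chaperones had -0.18 with 26 below 0, although Sdf2l1, a luminal stress-induced member, had 0.34 (0.08 to 0.61). NRF2 targets (31 genes, median 0.07) and AhR targets (11 genes, -0.0009) had no member at an unadjusted p under 0.05. Of 36 genes of the integrated stress response, 1 was higher at that p, beside 3.24% of all genes. It was Gdf15, a secreted stress hormone, with effects of 0.35 and -0.24 and a difference of 0.59 (0.19 to 1.00).

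Of 24 measured p53 targets, 1 was higher and 1 lower at an unadjusted p under 0.05, beside 3.24% and 2.33% of all genes. Plk3, a stress-responsive kinase, had a level of 0.65, 0.78 and 1.06 in DDEB, against 0.25, 0.39 and 0.33 in VC_2, and 0.20, 0.29 and 0.43 in CDEB, against 0.39, 0.46 and 0.36 in VC_1. DDEB cultures lay above their controls, CDEB cultures overlapped theirs, and the difference was 0.60 (0.27 to 0.93, limma adjusted p = 0.619). Rprm, a cell cycle arrest gene above background on 10 of 12 arrays, had -1.39 (-2.11 to -0.68), or -0.61 with normexp. The 33 cell cycle genes had a median difference of 0.29, with 26 above 0 and none at an unadjusted p under 0.05; without replicate 3 it was 0.08. Their median effect on the DDEB arrays was -0.34, -0.27 and 0.49, against -0.39, -0.39 and -0.34 on the CDEB arrays, so 1 DDEB culture carried the gap. Nusap1, a spindle protein, had 0.65 (-0.26 to 1.56).

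Among chemokines, Cxcl12 had the smallest p of the difference. Cxcl12, a homing signal for leukocytes and stem cells, had a level of -1.55, -1.55 and -1.78 in DDEB, against -1.40, -1.46 and -1.60 in VC_2, and of -0.49, -0.46 and -0.51 in CDEB, against -0.999, -0.929 and -1.38 in VC_1. CDEB cultures lay above their controls and DDEB cultures overlapped theirs. The difference was -0.76 ± 0.17 (-1.13 to -0.38, limma adjusted p = 0.557), and its 2 probes gave -0.76 and -0.55. The interferon-induced chemokines Cxcl10 and Cxcl11 had -0.89 (-1.80 to 0.03) and -0.52 (-0.99 to -0.05). Over the 30 measured genes of the list the median was -0.02, with 2 lower at an unadjusted p under 0.05. Without replicate 3 the median was -0.14 with 4 lower, and it was -0.20 without VC_1 replicate 3 alone and 0.13 without VC_2 replicate 3 alone. The share of all genes that were lower was 2.33% with all replicates and 5.32% without replicate 3.

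The medians of respiratory chain and matrix genes were close to 0 with all replicates. The 47 respiratory chain genes had a median of 0.00 (quartiles -0.04 and 0.05) and 1 lower at a small p; these were the closest quartiles of the 26 lists. The 50 matrix, adhesion and cytoskeleton genes had -0.01, with 2 lower: Ccn2, a matricellular growth factor, at -0.31 (-0.53 to -0.09), and Tln2, an integrin adaptor, at -0.27 (-0.50 to -0.04). Without replicate 3 the respiratory chain median was -0.03 with 38 of 47 genes below 0, and the matrix median was -0.09 with 38 of 50 below 0 and 5 lower at an unadjusted p under 0.05. The share of all genes that were lower at that p also rose without replicate 3, from 2.33% to 5.32%, and the median of all genes was -0.01. All 26 lists together had 786 measured genes of 893, with 27 higher (3.44%, against 3.24% of all genes) and 19 lower at an unadjusted p under 0.05.

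The genes with a symbol and the smallest p, well above background on all 12 arrays, were taken as 12 on each side of 0. None passed the test: their limma adjusted p lay between 0.261 and 0.619. Differences ran from 0.43 to 0.85 above 0 and from -1.37 to -0.38 below it. In 9 of 12 genes on each side both effects had opposite signs. All 24 kept their sign under the 28 other settings, but not all of these could change it. All 18 arrays, the replicate block, a variance trend and controls paired by number leave the estimate itself unchanged. The other filters on dim probes left the range of these differences unchanged too. With slide as a random block 11 of 12 on each side kept an unadjusted p under 0.05, and under array median scaling 4 of 12 above 0 and 12 of 12 below did. No overlap between the 3 DDEB and the 3 CDEB array effects was seen in any of the 24, as in 31.2% of all genes, and the choice by p favours this.

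Above 0, Sat2, an N-acetyltransferase, had the smallest p. Its level was 0.65, 0.65 and 0.73 in DDEB, against 0.61, 0.59 and 0.62 in VC_2, and 0.39, 0.34 and 0.31 in CDEB, against 0.82, 0.74 and 0.82 in VC_1. The gap lay in CDEB, whose cultures all sat below VC_1, with a difference of 0.52 ± 0.08 (0.34 to 0.70, limma adjusted p = 0.261). Ppp1r37, a regulator of protein phosphatase 1, was of the same kind (effects of -0.15 and -0.71, difference 0.56), as was Chka, choline kinase (0.05 and -0.40, difference 0.46). Map3k9, a kinase upstream of JNK, had effects of 0.20 and -0.37, and Epb41l4a, a band 4.1 family protein, 0.46 and -0.30. With normexp the differences of Ppp1r37 and Epb41l4a were 0.31 and 0.38.

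Csnk1e, a kinase of the circadian clock, had a level of -2.60, -2.60 and -2.28 in DDEB, against -3.15, -2.93 and -3.33 in VC_2, and -3.13, -2.93 and -2.79 in CDEB, against -2.73, -2.73 and -2.78 in VC_1. Its difference of 0.85 (0.44 to 1.25) held a larger effect of DDEB (0.65) than of CDEB (-0.20), and it was 0.23 with normexp. Snx10, an endosomal sorting nexin, had effects of 0.37 and -0.06 (difference 0.43), and Tlcd4, a membrane protein with a TLC domain, 0.39 and -0.14 (difference 0.53).

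Below 0, Sstr3, a somatostatin receptor, had a level of -0.35, -0.21 and 0.04 in DDEB, against 0.55, 0.91 and 0.81 in VC_2, and 0.58, 0.55 and 0.57 in CDEB, against 0.53, 0.76 and 0.66 in VC_1. Sstr3 fell with DDEB (-0.93, limma adjusted p = 0.0196) and had -0.08 with CDEB (adjusted p = 0.780), with a difference of -0.85 (-1.22 to -0.47, adjusted p = 0.436). Slc43a2, an amino acid transporter, also fell with DDEB (-0.46, adjusted p = 0.0200) and had -0.05 with CDEB; its 2 probes gave differences of -0.41 and -0.22. Smim3, a small membrane protein, fell with DDEB (-0.56, adjusted p = 0.0280) and had -0.05 with CDEB, a difference of -0.51 (-0.76 to -0.25).

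Other genes below 0 had effects on opposite sides. Ino80d, a chromatin remodelling subunit, had -0.38 and 0.74 (difference -1.12, -1.56 to -0.68, or -0.51 with normexp). Its mean level was -4.01 in DDEB and -3.87 in CDEB, and VC_2 minus VC_1 was 0.98 (limma adjusted p = 0.00159). Cfap100, a cilium protein, had -0.45 and 0.26 (-0.71). Cd209f, a C-type lectin, had a level of 0.47, 0.44 and -0.32 in DDEB, against 0.88, 0.96 and 0.61 in VC_2, and 1.45, 1.36 and 1.38 in CDEB, against 0.77, 0.83 and 0.34 in VC_1; its difference of -1.37 (-2.03 to -0.71) was -1.07 without replicate 3. Osbpl7, an oxysterol-binding protein, had -0.31 and 0.10, Btg1b, an antiproliferative gene on which VC_2 minus VC_1 was -0.64, had -0.26 and 0.12, Ropn1, a sperm flagellum protein, -0.37 and 0.09, and Ldb3, a muscle Z-disc protein, -0.84 and 0.11. With normexp the difference was -0.54 for Ldb3 and -0.70 for Myog. Myog, a muscle transcription factor, fell with DDEB (-1.05, limma adjusted p = 0.0486) to -3.20, -2.94 and -3.65, against -2.18, -2.41 and -2.04 in VC_2, but stood at -3.96, -4.34 and -3.95 in CDEB, against -4.20, -4.24 and -4.15 in VC_1. The vehicle groups of the 2 lots differed on Myog by more than either compound effect. Over all genes the vehicle groups differed at a limma adjusted p under 0.05 on 3794 (17.7%), whatever the size of the compound effects there.

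**Figure D5:**
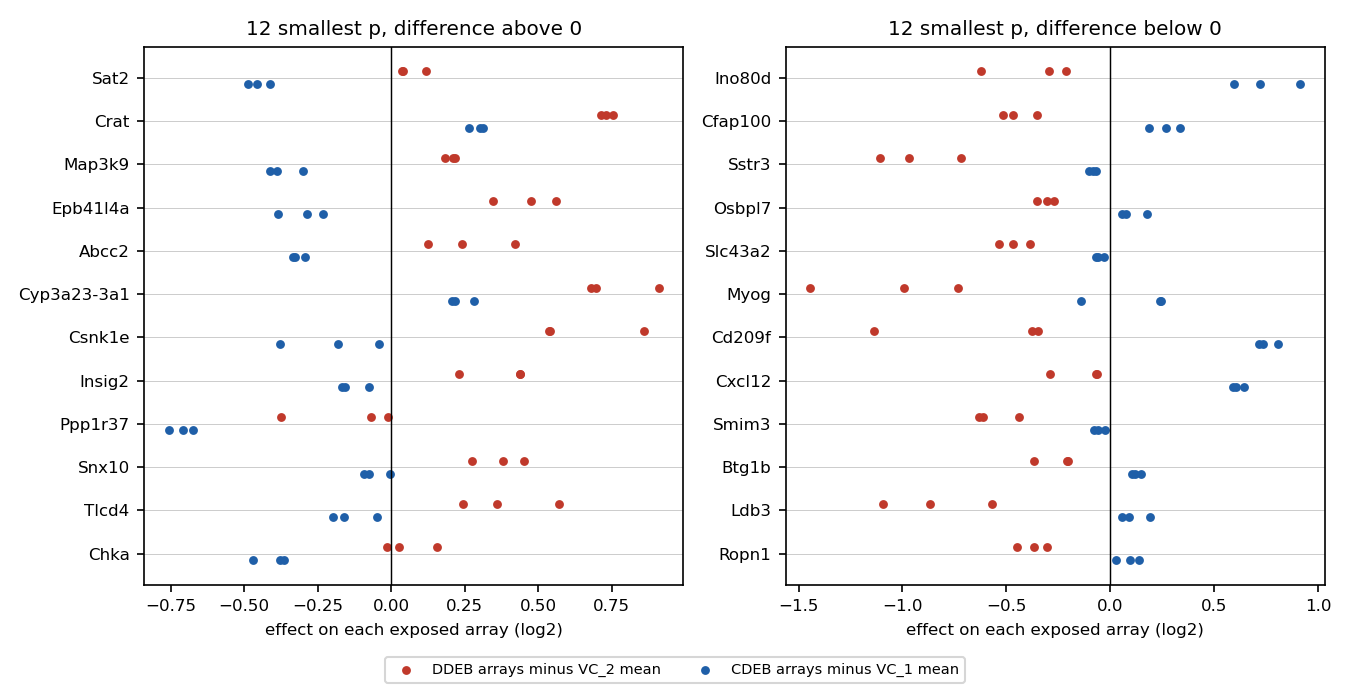
Effect on each DDEB array (minus the VC_2 mean) and each CDEB array (minus the VC_1 mean), log2, for the 12 genes on each side of 0 with the smallest p of the difference. The DDEB and CDEB points do not overlap in any of the 24 genes, which were chosen by this p.

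Further genes called in the DDEB effect had the following values. Colq, the collagen tail of acetylcholinesterase, rose with DDEB (1.52, limma adjusted p = 0.0377), had 0.88 with CDEB and a difference of 0.63 (-0.11 to 1.38). Tmem117, above background on 6 of 12 arrays, rose with DDEB (1.34, adjusted p = 0.0413), had 0.26 with CDEB and a difference of 1.08 (0.40 to 1.76). Pcp4l1, a small protein related to Pcp4, rose with DDEB (0.79, adjusted p = 0.0338), with 0.45 for CDEB and a difference of 0.35 (-0.03 to 0.72). Nefm, a neurofilament subunit, fell with DDEB (-1.35, adjusted p = 0.0284), with -0.68 for CDEB and a difference of -0.67 (-1.29 to -0.05). Flcn, a regulator of nutrient signalling, was not called in either effect, and its CDEB effect was the larger in size (-0.18 for DDEB and -0.41 for CDEB), with a difference of 0.23 (0.04 to 0.41). With normexp the differences of Colq, Tmem117 and Nefm were 0.34, 0.07 and -0.33.

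The labelled cell type was checked against its markers. All 12 hepatocyte markers were measured and well above background on all 12 arrays, and their summed linear signal, in units of the array's 75th percentile, was 3016 to 3228 in DDEB, 2512 to 3292 in VC_2, 2612 to 2901 in CDEB and 2024 to 2688 in VC_1. All 12 had a difference below 0, with a median of -0.20 (-0.19 without replicate 3), from median effects of 0.04 for DDEB and 0.25 for CDEB. None had an unadjusted p under 0.05. Of markers of other cells, 7 of 15 for stellate cells and fibroblasts, 6 of 15 for Kupffer cells, 4 of 15 for endothelial cells, 5 of 10 for cholangiocytes and 3 of 13 for lymphocytes passed the filter. Among those that did not were Lrat, Marco, Vsig4, Stab2, Lyve1, Krt19 and Cd3e. Summed signals were at most 1.35 for stellate, 13.8 for Kupffer, 10.9 for endothelial, 4.98 for cholangiocyte and 25.7 for lymphocyte markers in DDEB, and 1.16, 13.3, 11.4, 3.32 and 9.58 in CDEB. The lymphocyte sum differed mainly by lot, at 24.2 to 31.5 in VC_2 and 5.84 to 8.27 in VC_1. Median differences of the 5 lists were -0.11, -0.07, 0.09, 0.31 and -0.26, and the part of these cells in the results was not tested.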

How the data were processed

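Spots were quantified by Agilent Feature Extraction 10.7.1.1, whose processed Cy3 intensity is background-subtracted and detrended, per the file headers. The authors' deposited tables hold linear signal for which the sources used here give no scaling. On each array, 100.0% of probes with a deposited value over 1 were proportional to the processed intensity within 1%. Their log2 served as an alternative that largely repeats the main fit. It had 1195 genes at an unadjusted limma p under 0.05, beside 1194. Unflagged spots of 1 probe were averaged as log2 processed intensity, and the array's 75th percentile was subtracted (435 probes fully flagged on an array were dropped, leaving 45163). Probes were kept when well above background on all 3 arrays of any of the 4 groups (25128), and a gene was its brightest kept probe (21419). Probes were named by unversioned accession through the RefSeq table of GRCr8 (21102 of 45598 probes); the files name build rn4, so no array coordinates are given.

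The model held 4 group means and was fitted in R 4.3.3 by limma 3.58.1 (lmFit, eBayes; 8 residual degrees of freedom, prior 1.892), and the contrast of effects was adjusted by Benjamini-Hochberg over all genes. Errors are standard errors of that fit and intervals are at 95%. The fit was tested on simulated data. Same-numbered exposed and vehicle arrays had deviation correlations of 0.438, 0.094 and 0.491 (DDEB) and 0.208, -0.002 and 0.118 (CDEB). Those of different numbers ran from -0.486 to 0.272 (DDEB) and from -0.16 to 0.043 (CDEB). VC_2 with VC_1 had 0.64, 0.473 and 0.813 for the same number and -0.685 to 0.379 for different numbers. Arrays of 1 number thus shared part of their deviation, most in the vehicle groups and least with CDEB. The main fit did not pair by number and left this part in the residual. Named genes were the 12 smallest p on each side of 0 among genes with a symbol above background on all 12 arrays, members of 26 function lists with the smallest p, and genes named earlier. Members and lists were chosen with earlier results of these data known, and lists carry no test. Array number limits the precision.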

Additional observations from a re-analysis of the deposited data

How the results depend on the processing

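The count of genes whose effects differ was 0 with limma on the 12 arrays (1194 at an unadjusted p under 0.05). It was 2 with all 18 arrays in the fit, namely the transcript with no symbol described above and Sat2 (adjusted p = 0.0463). It was 1 with the controls paired by number (Nxnl2, -1.51, adjusted p = 0.0395), an alternative chosen after seeing the data, with a median standard error of 0.15 beside 0.19 and with 391 calls in the DDEB effect and 395 in the CDEB effect, beside 65 and 2. Array weights gave 244, by limma's gene-by-gene method, chosen after the default failed to converge. Leaving out replicates gave 0 to 6: 6 without DDEB replicate 3, among them Cdan1 (2.20, adjusted p = 0.0352, beside 1.33 with an interval of -0.48 to 3.15 on all 12 arrays) and Inhba (-0.77, adjusted p = 0.0308), 1 without VC_2 replicate 2 and 1 without CDEB replicate 2. These 3 named genes lie outside the rule for named genes and were chosen after their values were seen. With the replicate block the count was 0, with 2693 genes at an unadjusted p under 0.05 and a median standard error of 0.146. The block was seen before the pairing was checked, and the labels do not say what a replicate number shares. With slide as a random block the count was 0, with 265 genes at that p. Over the same settings the DDEB effect had 0 to 2321 calls and the CDEB effect 0 to 2264, both highest with array weights. Normexp used the median spot signal, since the files hold no mean signal column, and an offset of 50, which shrinks differences of dim genes.

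The median half-width of 0.42 was 0.61 with no filter on dim probes and 0.31 to 0.65 when replicates were left out, the highest without replicate 2. The median standard error of 0.19 was 0.26 with slide as a random block and 0.24 under array median scaling. Array median scaling moved the median of all genes to -0.12, so a difference of 0 there lies 0.12 above that median. It put 0.854% of genes higher and 8.31% lower at an unadjusted p under 0.05, beside 3.24% and 2.33%. Directions turned for 5 of the 86 genes named. Under that scaling Acadl was -0.0201, Hadha -0.11, Hspb1 -0.014 and Ucp2 -0.0497. When replicates were left out, Hadha ran from -0.0387 to 0.0956, Ucp2 from -0.192 to 0.4301 and Scd from -0.0547 to 0.0506. The Scd difference of effects was 0.0251 with normexp and 0.0012 with quantile normalization. The cause was not tested. The other 81 genes kept 1 sign under all settings, among them settings that leave the estimate itself unchanged. The plasma protein median ran from -0.30 without VC_2 replicate 3 to -0.08 without VC_1 replicate 3, and that of male-type and basal P450 genes from -0.64 to -0.16.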
